A study of Mus musculus with 3 samples.

Results

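Transcript levels of 8 genes of the p53 and apoptosis pathways, Trp53, Pmaip1, Bbc3, Fas, Casp8, Bid, Bax and Aen, were followed in gonads of male mouse embryos at embryonic day 14.5. The genes were chosen by name, and every non-control probe whose transcript accession belonged to one of them in the RefSeq gene table was kept. This gave 10 probes of the 41149 usable probes on the array, and 8 of the 16531 genes that could be named. Trp53 and Aen had 2 probes each and the other genes 1 each. All 10 probes were well above background on all 6 arrays and entered the tests, and 0 of their spots were saturated.

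Total RNA was hybridised to Agilent 1-colour arrays, with 2 arrays for each of 3 genotypes of the mouse line MCH. Wild-type gonads carried both genes (Cyp26b1+/+/Stra8+/+), Cyp26b1 knockout gonads lacked the retinoic acid-degrading enzyme Cyp26b1 (Cyp26b1-/-/Stra8+/+), and double knockout gonads also lacked Stra8, the retinoic acid-induced gene that germ cells need for meiosis (Cyp26b1-/-/Stra8-/-). The design text calls the duplicates biological. Whether RNA came from 1 embryo or from pooled embryos is not stated, and the p-values cover no more than the spread among these 6 arrays. The comparisons ask what differed without Cyp26b1, and what differed when Stra8 was missing as well. There was no genotype that lacked Stra8 alone.

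The protein p53 is a transcription factor that is stabilised after DNA damage and other stress, and raises the transcription of genes for cell-cycle arrest, repair and cell death. Some genes of the mitochondrial and of the death receptor route of apoptosis are among its targets. In the mitochondrial route, BH3-only proteins such as Pmaip1 (NOXA), Bbc3 (PUMA) and Bid release or activate the pore-forming protein Bax, while in the death receptor route Fas on the cell surface recruits Casp8, which cleaves effector caspases and Bid. Germ cells of the fetal testis are known to undergo a wave of apoptosis, and p53 and Bax are among the genes studied there.

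Levels are given as log2 processed signal relative to the 75th percentile of the same array, so that 0 is the level of that percentile. Differences are differences of these means, tested with limma over 27865 probes and called at a Benjamini-Hochberg adjusted p below 0.05. Levels of different probes are not compared with each other. In whole gonads, fewer cells of a type and less RNA per cell cannot be told apart. With 2 arrays against 2, an exact permutation test of a single probe cannot give a two-sided p below 0.333.

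The arrays had 75th percentiles of 997 to 1536 signal units, and duplicates correlated at 0.994 to 0.996 across 24500 probes. Each genotype lay on a slide of its own, and the slide of the Cyp26b1 knockout was scanned on another day than the other slides, so that slide and genotype cannot be told apart. The Cyp26b1 probe showed no called difference in any comparison (limma adjusted p = 0.552, 0.782 and 0.851), and the files do not say where it lies relative to the deletion. The Stra8 probe was higher than in wild type by 4.04 in the Cyp26b1 knockout and by 2.98 in the double knockout (limma adjusted p = 0.00018 and 0.00381), and between the knockouts the double knockout was lower (-1.06, limma adjusted p = 0.0443). Its position relative to the deletion is likewise not stated, so that neither probe checks the labels. Summed levels of the 8 germ cell markers were 98.5 to 99.4 times the 75th percentile in wild type, 64.3 to 76.8 in the Cyp26b1 knockout and 82.9 to 93.0 in the double knockout. The markers did not move as one: in the Cyp26b1 knockout against wild type 3 rose (Kit by 1.07, Sycp3 by 0.99 and Dazl by 0.72), 3 fell (Tdrd1 by 2.01, Mael by 1.07 and Ddx4 by 0.46) and 2 were not called.

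Without Cyp26b1, 6 of the 8 genes differed from wild type at their brightest probe. Pmaip1, Fas and the brighter Trp53 probe fell, and Casp8, Bid and Bax rose, while Bbc3 and Aen were not called. The 8 genes thus split evenly, with a median difference of -0.08, against -0.04 over all probes. Of all probes tested, 53.2% were called in this comparison, 25.1% higher and 28.0% lower, so that 6 of 8 genes is a share in an array on which more than every other probe was called. The arrays of both genotypes did not overlap for any of the 8 genes, as was so for 78.9% of all probes.

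Against wild type, the double knockout differed at 3 of the 8 genes. Pmaip1 and Fas fell and Bid rose, and the median over the 8 genes was 0.05, against -0.02 over all probes. Of all probes, 11.5% were called, 5.02% higher and 6.46% lower. Scaling by each array's median instead raised the median of all probes by 0.13 in this comparison, and then 3 of the genes were called higher and 1 lower (of all probes, 2940 higher and 1238 lower, in place of 1398 and 1800). The arrays of the genotypes were apart for 7 of the 8 genes and for 62.1% of all probes. These 3 calls rested on all 4 arrays, since they did not all hold when any 1 of these was left out. The number of all probes called also varied between such fits, so that the loss is not a result about these genes.

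Compared with the Cyp26b1 knockout, the double knockout was higher for Trp53 (brighter probe), Pmaip1 and Fas and lower for Casp8 and Bax. The median over the 8 genes was 0.21, against 0.04 over all probes. Of all probes, 45.8% were called, 23.5% higher and 22.3% lower (with median scaling 8462 and 4935, in place of 6536 and 6218, at a median raised by 0.12), and the arrays were apart for 5 of the 8 genes and 73.4% of all probes. The comparisons share arrays, so a low value on the Cyp26b1 knockout arrays enters both comparisons that use them.

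**Figure D1:**
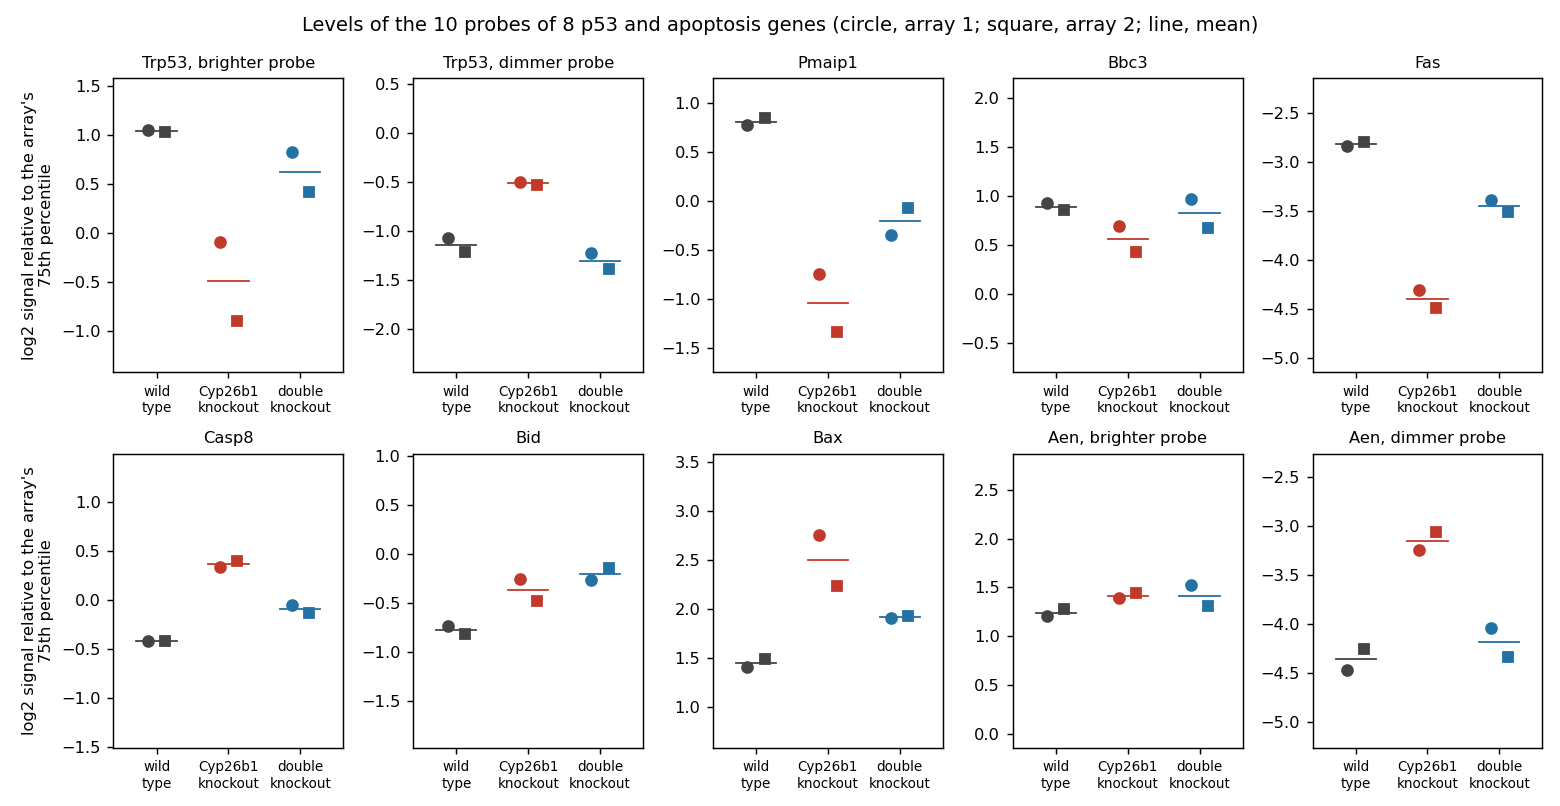
Levels of the 10 probes on each array, as log2 signal relative to the array's 75th percentile (vertical axis, the same span of 3 units in each panel), with a circle for array 1, a square for array 2 and a line for the mean of the genotype. Pmaip1 and Fas stood highest in wild type and lowest in the Cyp26b1 knockout, Casp8 and Bax stood the other way round, and the 2 Trp53 probes went opposite ways in the Cyp26b1 knockout.

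Trp53, which encodes p53 itself, gave opposite results at its 2 probes. The brighter probe, A_52_P491849, is printed in 10 spots on each array. It stood at 1.05 and 1.03 in wild type, at -0.09 and -0.89 in the Cyp26b1 knockout and at 0.83 and 0.42 in the double knockout. It was thus lowest on both Cyp26b1 knockout arrays, without overlap, and the Cyp26b1 knockout arrays were farther apart than those of the other genotypes. The difference from wild type was -1.54 ± 0.25 (SE, n = 2 arrays per genotype), a 2.90-fold lower level (limma adjusted p = 0.0018). The double knockout lay between, 1.12 above the Cyp26b1 knockout (limma adjusted p = 0.00908) and 0.42 below wild type, which was not called (limma adjusted p = 0.302, 95% interval of the difference -1.0 to 0.16).

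The dimmer Trp53 probe, A_52_P781398, stood at -1.07 and -1.21 in wild type, at -0.49 and -0.53 in the Cyp26b1 knockout and at -1.23 and -1.39 in the double knockout. Here both Cyp26b1 knockout arrays were the highest. The difference from wild type was 0.63 ± 0.11 (SE; limma adjusted p = 0.00265), and the double knockout was 0.79 lower than the Cyp26b1 knockout, a difference of -0.79 (limma adjusted p = 0.00143). Each of these calls was lost in 1 of 16 alternatives, without a change of sign. The brighter probe kept its Cyp26b1 knockout call against wild type in each of its 17 alternatives that held a test. At the dimmer probe the double knockout differed from wild type by -0.16, which was not called (limma adjusted p = 0.372). The differences of the 2 probes lay 2.17 apart in the Cyp26b1 knockout against wild type and 0.26 apart in the double knockout against wild type. No direction can therefore be given for the Trp53 transcript in the Cyp26b1 knockout.

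Spots of the brighter probe agreed within each array. Their standard deviations ran from 0.03 to 0.07, and on wild-type array 1 the spots ran from 1.0 to 1.12. On Cyp26b1 knockout array 1 they ran from -0.14 to 0.01 and on array 2 from -0.96 to -0.80. The gap between those arrays was thus wider than the spread of spots on either.

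**Figure D2:**
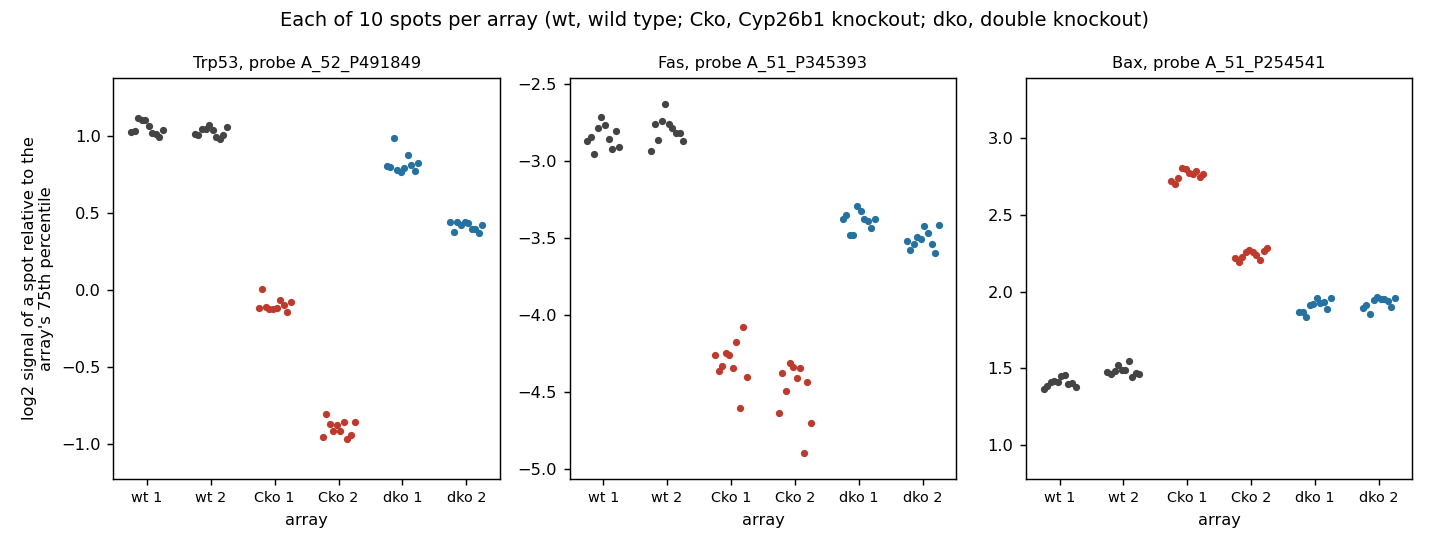
Each of the 10 spots of the Trp53, Fas and Bax probes on each array, as log2 signal relative to the array's 75th percentile (vertical axis), with arrays 1 and 2 of each genotype from left to right. Spots of the Fas probe ran from -2.96 to -2.63 in wild type and from -4.89 to -4.08 in the Cyp26b1 knockout, and those of the Bax probe from 1.37 to 1.55 and from 2.19 to 2.80.

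Pmaip1 encodes the BH3-only protein NOXA, which neutralises the survival protein Mcl1 and is a p53 target. Its probe stood at 0.78 and 0.84 in wild type, at -0.74 and -1.34 in the Cyp26b1 knockout and at -0.35 and -0.07 in the double knockout. The 3 genotypes did not overlap, with wild type highest and the Cyp26b1 knockout lowest. The Cyp26b1 knockout fell by 1.85 ± 0.19 (SE), 3.61-fold (limma adjusted p = 0.000302), the widest difference among the 10 probes. The double knockout fell by 1.02, 2.03-fold (limma adjusted p = 0.0181), and exceeded the Cyp26b1 knockout by 0.83 (limma adjusted p = 0.0107). Without double knockout replicate 2 that excess was no longer called. The double knockout call against wild type was lost without wild-type replicate 1 or 2 or double knockout replicate 1. In all, 4 of 17 alternatives lost this call against wild type.

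Bbc3 encodes PUMA, a BH3-only protein and p53 target that binds all the main survival proteins of the BCL-2 family. It stood at 0.93 and 0.86 in wild type, at 0.70 and 0.43 in the Cyp26b1 knockout and at 0.98 and 0.68 in the double knockout. The Cyp26b1 knockout arrays were both below wild type, and the double knockout overlapped both other genotypes. No difference was called. The Cyp26b1 knockout differed from wild type by -0.33 (limma adjusted p = 0.067, 95% interval -0.64 to -0.02), and 6 alternative settings called it, with adjusted p from 0.0246 to 0.0475. The double knockout differed from wild type by -0.07 (limma adjusted p = 0.77, interval -0.37 to 0.24) and from the Cyp26b1 knockout by 0.26 (limma adjusted p = 0.14, interval -0.04 to 0.57).

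Bid is the BH3-only protein that Casp8 cleaves, which carries the death receptor signal to mitochondria. It stood at -0.74 and -0.82 in wild type, at -0.26 and -0.48 in the Cyp26b1 knockout and at -0.27 and -0.15 in the double knockout. Both knockout genotypes lay above wild type and overlapped each other. Bid rose by 0.40 ± 0.11 (SE) in the Cyp26b1 knockout (limma adjusted p = 0.0191) and by 0.57 in the double knockout (limma adjusted p = 0.0221). The first call was lost without wild-type replicate 1 or 2 or Cyp26b1 knockout replicate 1, and the second without any of the 4 arrays compared. In all, 4 of 17 alternatives lost the first call and 5 lost the second. The knockouts differed from each other by 0.16, not called (limma adjusted p = 0.268, interval -0.10 to 0.43).

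Bax, the pore-forming effector that permeabilises the outer mitochondrial membrane and a p53 target, moved the opposite way from Pmaip1. Its 10-spot probe stood at 1.41 and 1.49 in wild type, at 2.76 and 2.24 in the Cyp26b1 knockout and at 1.91 and 1.93 in the double knockout. The genotypes did not overlap, and the double knockout lay between the others. Bax rose by 1.05 ± 0.16 (SE) in the Cyp26b1 knockout, 2.07-fold (limma adjusted p = 0.00125). In the double knockout it was 0.47 above wild type, not called (limma adjusted p = 0.0955, interval 0.11 to 0.83), though 4 of 17 alternatives called it. Relative to the Cyp26b1 knockout it fell by 0.58 in the double knockout (limma adjusted p = 0.0191). Without either double knockout array the last call was lost.

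Fas encodes the death receptor of the Fas ligand, and is also a p53 target. Its 10-spot probe stood at -2.84 and -2.80 in wild type, at -4.31 and -4.50 in the Cyp26b1 knockout and at -3.39 and -3.51 in the double knockout. The genotypes again did not overlap, with the same order as for Pmaip1. Fas fell by 1.58 ± 0.16 (SE) in the Cyp26b1 knockout, 2.99-fold (limma adjusted p = 0.000282), and by 0.63 in the double knockout (limma adjusted p = 0.0476), which was 0.95 above the Cyp26b1 knockout (limma adjusted p = 0.00304). The call in the double knockout against wild type was lost under quantile normalization, under median scaling, without a filter on dim probes, with 1 row per gene, and without any of the 4 arrays. In all, 10 of 17 alternatives lost the call of the double knockout against wild type, and 1 lost the call between the knockouts. Processed signals of the Fas probe were low in the Cyp26b1 knockout, 50.4 on both arrays, against 181 and 221 in wild type. The gene for Fas ligand, Fasl, is on the array and did not pass the filter on low signal.

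Some cell type markers moved in the order of Fas, a receptor that lymphocytes also express, and others did not. The summed level of 5 T and natural killer cell markers was 0.48 to 0.53 times the 75th percentile in wild type, 0.0936 to 0.0977 in the Cyp26b1 knockout and 0.157 to 0.161 in the double knockout, the same order as for Fas and Pmaip1. Of these 5, Cd3g was not well above background in any genotype and Gzma in neither knockout. In the Cyp26b1 knockout against wild type 3 of the 4 tested markers fell, among them Cd2 by 2.78 and Nkg7 by 0.98, while Cd3e differed by -0.02 and was not called (limma adjusted p = 0.93). Of the 4 Leydig cell markers on the array, 3 fell and 0 rose in the Cyp26b1 knockout, and their sum was 93.8 to 109 in wild type, 57.4 to 76.7 in the Cyp26b1 knockout and 80.6 to 95.8 in the double knockout. Of 5 macrophage markers, 2 rose and 1 fell in the Cyp26b1 knockout. The part of these cells in the Fas and Pmaip1 differences was not tested.

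Casp8, the initiator caspase recruited by Fas, stood at -0.42 on both wild-type arrays, at 0.33 and 0.40 in the Cyp26b1 knockout and at -0.05 and -0.13 in the double knockout. It thus ran in the opposite order from Fas, without overlap. Casp8 rose by 0.78 ± 0.09 (SE) in the Cyp26b1 knockout, 1.72-fold (limma adjusted p = 0.000446), and fell by 0.46 in the double knockout relative to the Cyp26b1 knockout (limma adjusted p = 0.00576). Against wild type the double knockout was 0.33 higher, just short of the threshold (limma adjusted p = 0.0576, interval 0.12 to 0.54), and 2 of 17 alternatives called it.

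Aen encodes a nuclease that p53 induces and that takes part in the breakdown of DNA during apoptosis. Its brighter probe, A_52_P443705, stood at 1.20 and 1.28 in wild type, at 1.39 and 1.44 in the Cyp26b1 knockout and at 1.52 and 1.31 in the double knockout. Both knockouts lay a little above wild type and overlapped each other. No difference was called at this probe, with 0.18 for the Cyp26b1 knockout (limma adjusted p = 0.169, interval -0.05 to 0.40) and 0.17 for the double knockout (limma adjusted p = 0.285, interval -0.06 to 0.40) against wild type. The dimmer probe, A_51_P481052, stood at -4.47 and -4.25 in wild type, at -3.25 and -3.06 in the Cyp26b1 knockout and at -4.04 and -4.34 in the double knockout. Here the Cyp26b1 knockout stood apart from both other genotypes, by 1.21 ± 0.19 (SE) from wild type (limma adjusted p = 0.00182), and the double knockout differed from it by -1.03 (limma adjusted p = 0.00465). The difference from wild type turned to -0.23 (adjusted p = 0.854) under a normexp background correction fitted on all spots. The probes differed by 1.03 in the Cyp26b1 knockout against wild type and by 0.00 in the double knockout against wild type.

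**Figure D3:**
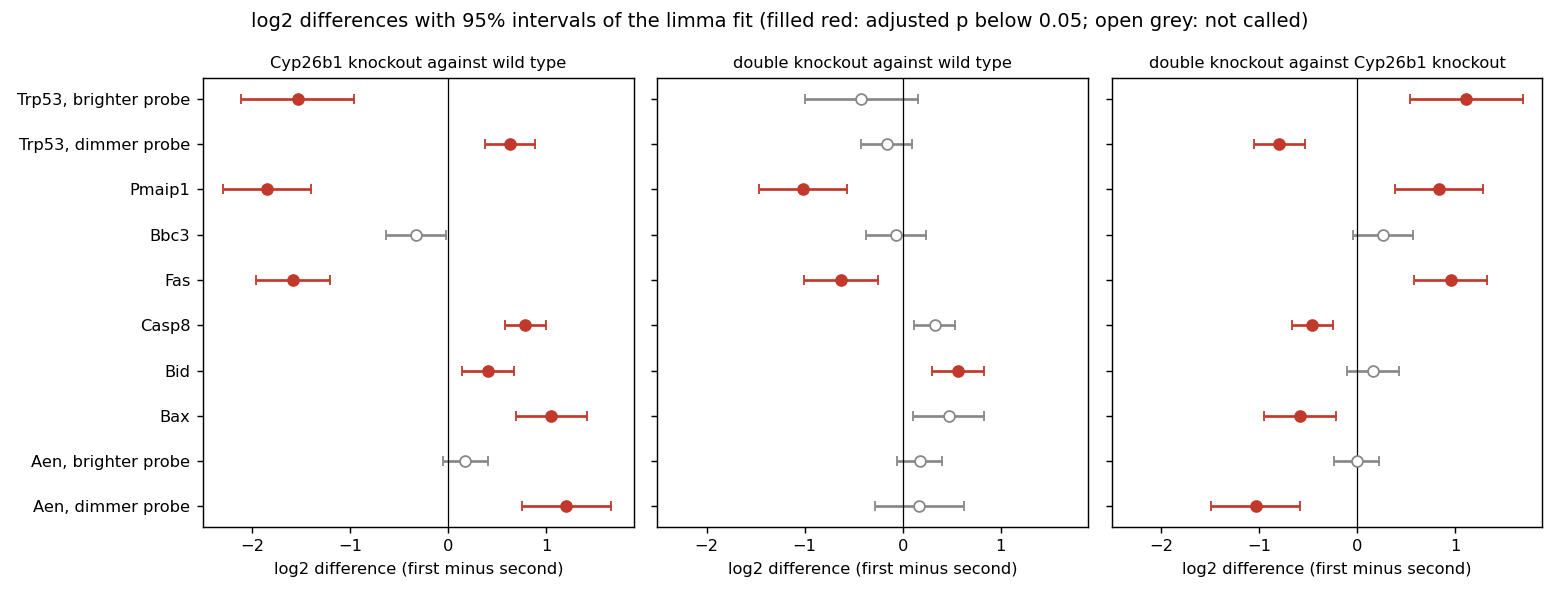
log2 differences (horizontal axis, first genotype minus second) of the 10 probes in the 3 comparisons, with 95% intervals of the limma fit, filled red where the adjusted p was below 0.05 and open grey where it was not. Against wild type the differences ran from -1.85 (Pmaip1) to 1.21 (dimmer Aen probe) in the Cyp26b1 knockout and from -1.02 (Pmaip1) to 0.57 (Bid) in the double knockout.

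Disagreement between probes of one gene, as for Trp53 and Aen, was frequent on these arrays wherever the Cyp26b1 knockout was compared. Of 4506 genes with at least 2 tested probes, 468 (10.4%) had probes called in opposite directions in the Cyp26b1 knockout against wild type, and 485 (10.8%) where the 2 knockouts were compared. In the double knockout against wild type there were 6 such genes (0.133%). As a share of genes with any call these were 12.9%, 14.1% and 0.739%. The median gap between the differences at the brightest and second brightest probe was 0.475, 0.465 and 0.153 in the same order. The second brightest probe had the higher difference in 67.9% of genes in the Cyp26b1 knockout against wild type, as for Trp53 and Aen, in 27.3% where the knockouts were compared and in 41.1% in the double knockout against wild type. Both Cyp26b1 knockout arrays share a slide and scan day, and the part of these in the disagreement was not tested.

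**Figure D4:**
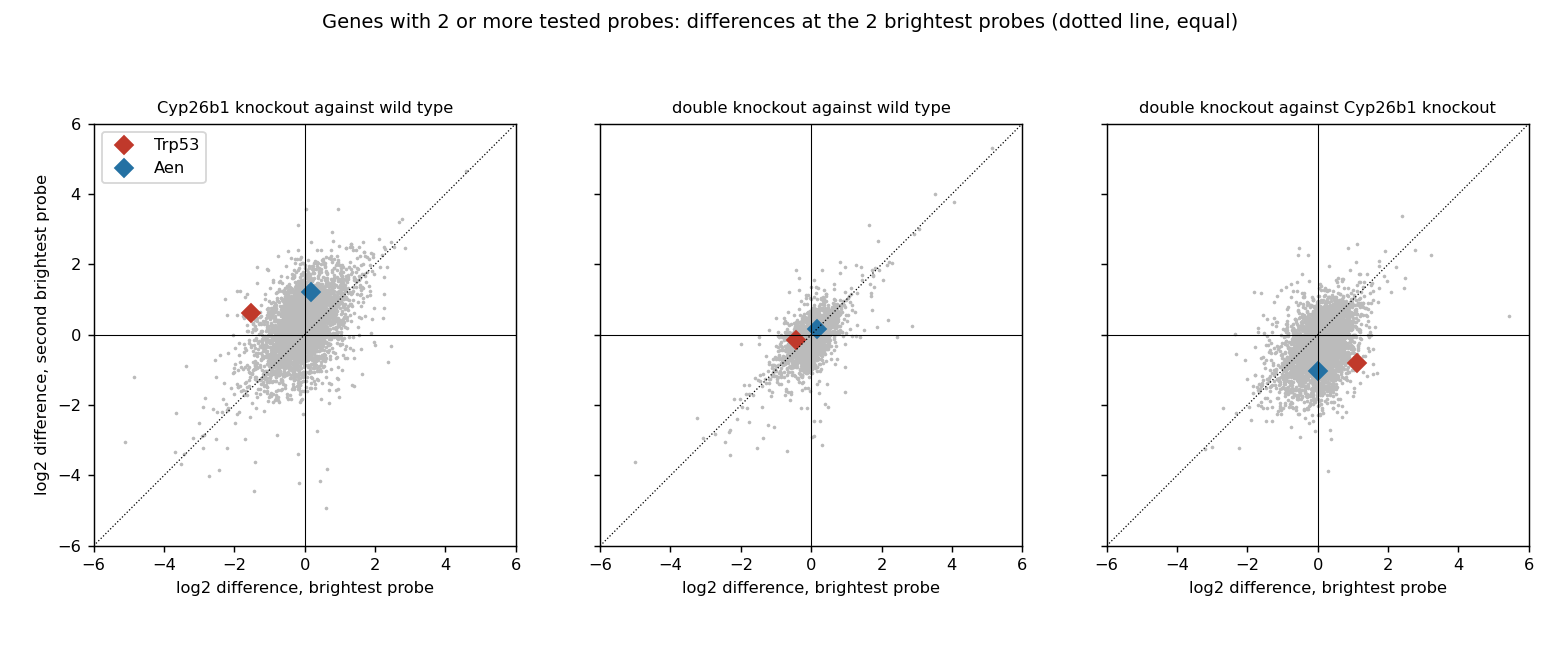
log2 differences at the brightest (horizontal axis) and second brightest (vertical axis) tested probe of each of 4506 genes in the 3 comparisons, with the dotted line where both are equal. Trp53 (red) lay at -1.54 and 0.63 in the Cyp26b1 knockout against wild type, and at -0.42 and -0.16 in the double knockout against wild type, where the cloud lay closer to the line. Aen (blue) lay at 0.18 and 1.21, and at 0.17 and 0.17.

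Counting only genes whose tested probes were all called the same way removed Trp53 and left 5 genes in the Cyp26b1 knockout against wild type, 3 higher and 2 lower. Against the Cyp26b1 knockout it left 4 genes in the double knockout, and against wild type 3. Counting each gene by its dimmest tested probe gave 7, 6 and 3 genes, with 5 higher and 2 lower in the Cyp26b1 knockout against wild type. The remaining 6 genes have a single probe, for which no such check could be made.

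RefSeq promoter windows of assembly GRCm38.p6, from 250 bases before to 50 after a transcription start, were read for 7 of the 8 genes (10 windows). Pmaip1 was left out, so that its promoter was not searched. The windows were searched for the p53 half-site, which is 3 purines, C, 2 A or T, G and 3 pyrimidines and reads the same on both strands. A half-site was in 8.36% of all 32851 windows, and a pair of half-sites at most 13 bases apart in 0.0731%. Trp53, Bax and Aen held 1 half-site each, at -75 to -66, at -201 to -192 and, in the window of the more downstream of the 2 Aen starts, at -121 to -112. The windows of Fas, Casp8, Bid and Bbc3 (3 windows) held none, and 0 of the 10 windows held a pair. The bases from -250 to -51 are shown, on the strand of the gene and with the half-site in capitals, for Trp53, whose probes disagreed, for Bax, which rose, and for Fas, which fell. They lie at chr11:69580109-69580308 (plus strand), chr7:45466949-45467148 (minus strand) and chr19:34290409-34290608 (plus strand).
Trp53: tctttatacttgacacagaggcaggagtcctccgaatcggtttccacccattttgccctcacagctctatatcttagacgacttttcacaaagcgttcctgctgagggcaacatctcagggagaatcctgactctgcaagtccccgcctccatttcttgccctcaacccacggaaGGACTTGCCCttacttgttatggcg
Bax: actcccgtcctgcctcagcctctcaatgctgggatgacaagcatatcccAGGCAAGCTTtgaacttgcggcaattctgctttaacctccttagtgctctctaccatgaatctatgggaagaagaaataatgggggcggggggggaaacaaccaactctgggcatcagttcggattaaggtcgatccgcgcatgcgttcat
Fas: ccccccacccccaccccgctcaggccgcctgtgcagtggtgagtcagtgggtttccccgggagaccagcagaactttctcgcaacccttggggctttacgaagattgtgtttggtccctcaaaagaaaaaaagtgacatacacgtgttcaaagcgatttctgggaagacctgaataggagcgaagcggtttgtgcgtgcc
A match describes the letters only, and genes with a half-site in their window (Trp53, Bax) and without (Fas, Casp8) were among those called.

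The other genes of the pathway came from a list of 85 genes in 8 roles, of which 75 were tested, 67 of them besides the 8 described above. In the Cyp26b1 knockout against wild type 17 of the 67 rose and 23 fell, in the double knockout against wild type 3 rose and 5 fell, and the double knockout exceeded the Cyp26b1 knockout at 19 and fell below it at 15. The double knockout calls against wild type were the least stable. Median scaling turned 4 higher and 7 lower of all 75 into 14 higher and 4 lower, and leaving out any array of either genotype left fewer genes called. In the Cyp26b1 knockout against wild type, the 46 called genes became fewer when either wild-type array was left out. No share of all probes is set beside these losses, which are no result about the listed genes. Counting genes by their dimmest probe turned 20 higher and 26 lower into 29 and 15 in the Cyp26b1 knockout against wild type. Between the knockouts it turned 22 higher and 17 lower into 13 and 26. Medians over all 75 were -0.11, -0.03 and 0.11, against -0.04, -0.02 and 0.04 over all probes. Their shares called, 46, 11 and 39 of 75, are read beside the 53.2%, 11.5% and 45.8% of all probes. The counts by role that follow are read beside the same shares, and no role was tested against them. In the Cyp26b1 knockout against wild type, 25.1% of all probes were called higher and 28.0% lower.

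Among regulators of p53, 4 of 11 rose and 2 fell in the Cyp26b1 knockout. Kat5, an acetyltransferase that acts on p53, rose by 0.72 and Trp53bp1, a damage-response protein that binds p53, by 0.61 at its brighter and by 2.22 at its dimmer probe. Ppm1d, a phosphatase that shuts off p53 signalling, fell by 1.05, and its second probe by 0.74. Mdm2, the ubiquitin ligase that degrades p53 and is itself a p53 target, had probes called in opposite directions, -0.27 at the brighter and 0.90 at the dimmer. In the double knockout against wild type 1 rose, the checkpoint kinase Chek1 (0.60), and 1 fell, the checkpoint kinase Chek2 (-0.58). Both probes of Chek1 were called there, at 0.60 and 0.75.

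Among p53 targets outside the core apoptosis machinery, 4 of 23 rose and 8 fell in the Cyp26b1 knockout. Ddb2, a sensor of ultraviolet damage, stood at -0.82 and -0.92 in wild type, at 0.53 and 1.0 in the Cyp26b1 knockout and at -0.92 and -0.99 in the double knockout. It thus stood highest in the Cyp26b1 knockout, by 1.64 over wild type, while the double knockout differed from wild type by -0.09, which was not called (limma adjusted p = 0.748). Cdkn1a, the p21 inhibitor of cyclin-dependent kinases, went the other way, from -1.31 and -1.24 in wild type to -2.14 and -2.27 in the Cyp26b1 knockout and -1.96 and -1.90 in the double knockout. It fell by 0.93 and by 0.66 (limma adjusted p = 0.000613 and 0.0144), and the knockouts differed from each other by 0.27, not called. Tigar, a regulator of sugar metabolism, fell by 1.0 at its brighter probe, while its other probe differed by 0.15 and was not called. Sfn, the 14-3-3 sigma protein, rose by 0.89 in the Cyp26b1 knockout and by 0.44 in the double knockout at its brightest probe, while its other probes fell by 1.40 and 1.87 in the double knockout against wild type. In the double knockout against wild type 1 of 23 rose and 3 fell, which were the kinase Plk3 (-0.80), Cdkn1a and the ubiquitin ligase subunit Fbxw7 (-0.53).

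The other BH3-only proteins held the widest rise of the list. Bik stood at -3.38 and -3.52 in wild type, at -1.58 and -1.31 in the Cyp26b1 knockout and at -1.21 and -1.17 in the double knockout. Both knockouts were thus above wild type, by 2.01 and 2.26 (limma adjusted p = 9.3e-05 and 0.000321), and differed from each other by 0.26, not called (limma adjusted p = 0.166). Bad rose by 0.94 in the Cyp26b1 knockout and was 0.09 from wild type in the double knockout. Its probe stood at low levels, -4.50 and -4.72 in wild type and -3.55 and -3.79 in the Cyp26b1 knockout. Bmf fell by 0.36 at the brightest of its 3 probes in the Cyp26b1 knockout, while the others differed by 0.45 and 0.94 and were not called. Bcl2l11 (BIM) was 0.43 higher in the double knockout than in the Cyp26b1 knockout at its brighter probe, while the other differed by 0.17 and was not called. Against wild type the dimmer Bcl2l11 probe was called higher in the Cyp26b1 knockout (0.78) and in the double knockout (0.95). The brighter differed there by -0.08 and 0.34 and was not called. Bak1, the pore-forming partner of Bax, fell by 0.65 at its brighter probe and rose by 0.43 at the dimmer in the Cyp26b1 knockout.

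Of 4 tested BCL-2 survival proteins, 1 rose and 2 fell in the Cyp26b1 knockout, 0 were called by limma in the double knockout against wild type (1 at an unadjusted p below 0.05), and 3 were higher in the double knockout than in the Cyp26b1 knockout. Mcl1, which Pmaip1 binds, fell by 0.23 in the Cyp26b1 knockout and was 0.38 higher in the double knockout than there, and its second probe was called the same way both times (-0.28 and 0.59). Bcl2l1 (BCL-XL) fell by 0.62 at the brightest of its 3 probes and rose by 0.66 at another. Bcl2l2 rose by 0.26.

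Among death receptors, ligands and adaptors besides Fas, 0 of 6 rose and 2 fell in the Cyp26b1 knockout. These were the tumour necrosis factor receptor Tnfrsf1a, which fell by 0.73, and Cflar, an inhibitor of Casp8, which fell by 0.45 at its brightest probe and was also lower in the double knockout (-0.58). The other 2 Cflar probes differed by 0.03 and by -0.01 in the double knockout against wild type and were not called. The ligands Fasl, Tnf and Tnfsf10 did not pass the filter on low signal. Of 4 tested inhibitors of apoptosis 2 fell in the Cyp26b1 knockout, Birc6 by 0.48 and Birc3 by 0.37.

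Among caspases and apoptosome components besides Casp8, 6 of 14 rose and 5 fell in the Cyp26b1 knockout, and 0 of 14 were called by limma in the double knockout against wild type (5 at an unadjusted p below 0.05). The mitochondrial protease Htra2 and Parp1, a caspase substrate, rose by 0.61 each, and Casp2, an initiator caspase, fell by 0.40. Aifm1, a mitochondrial flavoprotein released in apoptosis, fell by 0.58 at its brighter probe and rose by 1.21 at the dimmer. The nuclease Dffb and its inhibitor Dffa were lower in the double knockout than in the Cyp26b1 knockout (-0.91 and -0.78).

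**Figure D5:**
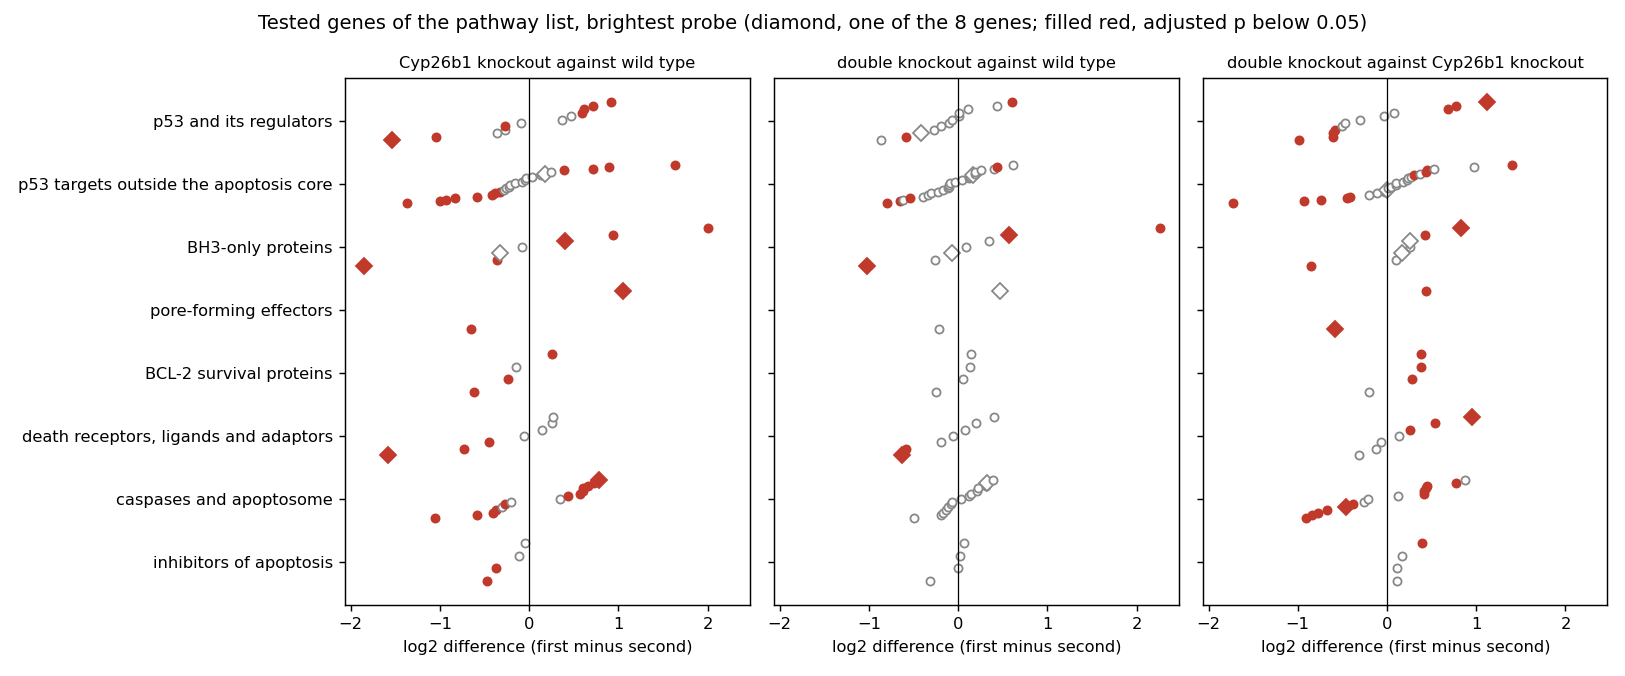
log2 differences (horizontal axis, first genotype minus second) of the 75 tested genes of the pathway list at their brightest probe, by role, in the 3 comparisons, with diamonds for the 8 genes and filled red for an adjusted p below 0.05. In the double knockout against wild type 11 genes were called, with Bik at 2.26 farthest out, and in the Cyp26b1 knockout against wild type 46.

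Opposite calls at probes of one gene met 8 of the 34 listed genes with at least 2 tested probes (23.5%) in the Cyp26b1 knockout against wild type, Trp53, Mdm2, Bak1 and Bcl2l1 among them. Between the knockouts there were 6 (17.6%), and between double knockout and wild type 1, Sfn (2.94%). Counts of higher and lower genes by their brightest probe therefore give no direction for these genes.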

How the data were processed

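Intensities of every spot, in 1 scanner file for each array, were deposited by the authors. They had been read with Agilent Feature Extraction 9.5.3.1, background-subtracted and detrended but not scaled between arrays, per the file headers. The authors' deposited value table, with a column per genotype, behaved as a linear ratio. Its medians were 0.9998 (wild type), 1.12 (Cyp26b1 knockout) and 0.959 (double knockout), its direction matched the scanner files across 24500 probes, and its centring reference and scaling between arrays are unknown. Log2 processed signals were set relative to each array's 75th percentile. Outlier spots were left out, remaining spots of a probe were averaged, and 25 probes lacking any usable spot on some array were dropped. Of the others, 23363 matched 1 gene of a RefSeq table of assembly GRCm38.p6 and 0 several. A probe was tested if both arrays of some genotype were well above background there, which held for 27865. The test was limma 3.58.1 (R 4.3.3, trended eBayes, 3 residual and 4.46 prior degrees of freedom) in a fit over all 6 arrays, checked on simulated data. All p-values are two-sided. Genes are counted by their brightest probe. From the pathway list, the rule named up to 2 genes higher and 2 lower per role and comparison, those of smallest adjusted p, or else the uncalled gene with the smallest. Cdkn1a in the double knockout, and probes other than the brightest, were added after their values were seen. The 8 genes, the lists and the tests were chosen with earlier results of these data known. The 2 arrays per genotype limit the precision. Alternatives were quantile and median scaling, normexp, other filters, a replicate block, a fit on each pair of genotypes, and each array left out. The authors' value table was counted among them and gave differences without a test, so that no call could be kept or lost there.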

Additional observations from a re-analysis of the deposited data

How the results depend on the processing

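Across 504 recalculated differences of the 10 probes, 437 stayed on their side of the threshold (or, without a test, moved by less than 1 SE). Another 33 lost a call, 12 gained one, 21 untested ones moved and 1 reversed. A change of sign was counted as a reversal only for a difference called before or after it. Uncalled differences could change sign and stay among the 437. Bbc3 did so in the double knockout against wild type, from -0.07 to at most 0.08. The reversed one was the dimmer Aen probe, at -0.2302 in the Cyp26b1 knockout against wild type under normexp fitted on all spots. That setting, with median signals in place of the planned mean signals, was added after seeing the data. In the Cyp26b1 knockout against wild type, between the knockouts and in the double knockout against wild type, it called 4, 3 and 1 of the 8 genes, 22, 13 and 1 pathway genes, and 4703, 3657 and 594 of all probes. Leaving outlier spots out of its fit gave 7, 5 and 3 of the 8 genes. In the double knockout against wild type, median scaling called 18 pathway genes (14 higher, 4 lower), and no filter on dim probes called 1916 probes. Leaving out each array gave 5 to 7, 3 to 5 and 0 to 4 of the 8 genes in the same order of comparisons, 27 to 44, 26 to 37 and 1 to 14 pathway genes, and 648 to 3526 of all probes in the double knockout against wild type. Where 1 array was left, it was assumed to vary like the others. With array number as a replicate block, 7, 5 and 3 of the 8 genes were called (Bbc3 joined, adjusted p = 0.0246) and 15557, 13508 and 3627 of all probes; numbers are only in file names, and deviations of same-numbered arrays correlated at 0.101 to 0.222. The authors' table shifted differences by 0.1025, -0.3021 and -0.1995. No slide block was fitted, since each slide held 1 genotype, and wild type and double knockout, scanned on the same day, were fitted alone (4 of the 8 genes called). Where a count of the 8 genes stands without one over all probes, it is not a result about these genes. Fas in the Cyp26b1 knockout against wild type lost its call only under normexp fitted on all spots (adjusted p = 0.273), among the alternatives run.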

Other observations

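For each of the 8 genes, the named genes with the most similar profile were sought among 12295 genes well above background on all 6 arrays, by Pearson r of log2 level over the 6 arrays. These values are a description: the arrays fall into 3 genotypes, so that r reflects the order of the genotypes. The profile of Trp53 (brighter probe) was closest to those of Dnajc2 (0.998), Taf8 and Ccdc59, that of Pmaip1 to Vcpkmt (0.998), Zmat5 and Ptpn22, and that of Fas to Nsrp1 (0.999), Slc27a5 and Arl3. Casp8 was closest to Efnb3 (0.9997), Farsb and C2cd2, Bid to Tle4 (0.999), Prtg and Ceacam1, and Bax to Crygc (0.997), Spc25 and Acadvl. Bbc3 was closest to Ube2e2 (0.995), Fgf18 and Gjb5. The number of genes with r over 0.99 was 90 for Fas, 36 for Casp8, 18 each for Trp53 and Pmaip1, 17 for Bax, 10 for Bid, 3 for Bbc3 and 0 for Aen, whose closest profile was that of Adgrb1 (0.983).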
